A study of Mus musculus with 14 samples.

Results

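Pknox1 and its relatives among the TALE homeobox genes were followed in the hippocampus of male C57BL/6J mice kept for 28 days under 1 of 3 oxygen regimes. The genes were chosen by symbol from the PREP (Pknox), MEIS, PBX and TGIF families, and 8 of the 7756 genes of the table were found in this way: Pknox1, Pknox2, Meis1, Meis2, Meis3, Pbx2, Pbx3 and Pbx4. Members of these families without a row were not analysed here. The set was built around Pknox1 because its RNA was higher in both hypoxia groups than in control, so the values of Pknox1 against control are a description and carry no test. The other genes entered through their symbols, with earlier results of these data known. The authors had removed genes with little difference from control before deposit, so having a row already depended in part on the comparison with control.

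The control group (n = 4) breathed 21% oxygen. The intermittent hypoxia group (IH, n = 5) breathed oxygen that cycled every 2 min from 10% to 21% and back, during 8 h of each day, a model of the repeated desaturation of obstructive sleep apnea. The sustained hypoxia group (SH, n = 5) breathed 10% oxygen for 8 h per day. All mice were wild type and 8 weeks old at the start, and RNA was taken from the hippocampus. The control RNA came from mice of a preliminary experiment, so that a difference between experiments and a difference between oxygen regimes cannot be told apart in either comparison with control, whereas no such split is described between IH and SH. Within a group the labels number the libraries and do not tie a number to a mouse, so p-values measure the spread between these libraries.

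TALE proteins are homeodomain transcription factors, named for an extended loop between the first helices of the homeodomain. PREP and MEIS proteins bind PBX proteins through their N-terminal regions, and this pairing keeps PBX in the nucleus and lets the complex bind DNA, alone or with HOX proteins. PREP1, the product of Pknox1, and MEIS proteins use the same surface of PBX. TGIF proteins are TALE repressors that act on TGF-beta signalling.

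The family resemblance, and the feature that divides it, can be seen in the coding bases of the recognition helix, the part of the homeodomain that lies in the major groove of DNA. The 24 bases that encode homeodomain residues 47 to 54 are given for the 8 genes, read 5′ to 3′ on the coding strand from the GRCm39 genome with GENCODE annotation, with the codon of residue 50 in capitals, because that residue sets the PBX genes apart from the PREP and MEIS genes.
Pknox1: aactggttcATCaacgcgagaaga
Pknox2: aactggttcATCaatgccaggagg
Meis1: aattggtttATTaatgcccggaga
Meis2: aactggtttATCaatgccagaaga
Meis3: aactggtttATTaatgcccggaga
Pbx2: aactggttcGGTaacaagcgaatt
Pbx3: aactggtttGGCaacaaacgaatc
Pbx4: aactggtttGGCaacaaaagaatc

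The capital codon reads isoleucine in the PREP and MEIS genes and glycine in the PBX genes. In the 5 PREP and MEIS genes the stretch is split by an intron, at chr17:31821832-31822179 on the + strand in Pknox1, and in the 3 PBX genes it lies within a single exon. Over the 189 bases of the whole homeodomain, Pknox1 shared 78.3% with Pknox2, 65.1% with Meis1, 66.1% with Meis2 and with Meis3, and between 46.6% and 49.2% with the 3 PBX genes.

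Such likeness could split reads between relatives, so the transcripts were compared. The longest run of bases shared by the transcripts of any 2 of the 8 genes was 28 (Meis2 and Meis3), well under the 150 bases of a read. Pknox1 has 1 close copy of a part of its transcript elsewhere in the genome. The bases 3829 to 4286 of its 4315-base transcript, near the 3′ end, have a match of 458 bases at 96.3% identity at chr10:103072816-103073271. How reads from that stretch were assigned was not tested. Pbx4 carries, at bases 2266 to 2454 of its 2472-base transcript, a stretch with 1003 matches of at least 150 bases elsewhere, as an interspersed repeat would have, so its counts depend on how such reads were assigned. The other 6 genes had 0 matches of that length.

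In GRCm39, Pknox1 (ENSMUSG00000006705.15) spans chr17:31783674-31826696 on the + strand in 11 exons and encodes 436 residues. Pknox2 lies at chr9:36801548-37059214 (−), Meis1 at chr11:18829817-18969749 (−), Meis2 at chr2:115693062-115896341 (−), Meis3 at chr7:15909015-15920439 (+), Pbx2 at chr17:34810240-34816375 (+), Pbx3 at chr2:34061469-34263154 (−) and Pbx4 at chr8:70284110-70325822 (+). Pbx2 overlaps the protein-coding gene Gpsm3 on the same strand, so reads in the shared part could belong to either gene. Meis3 and Pbx4 overlap no annotated gene, and the other 5 overlap only annotated genes that are not protein-coding.

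The libraries summed to between 7203660.5 and 11777100 estimated read counts over the genes of the table, and the ranges of the 3 groups overlapped. Values below are normalized counts, that is, counts scaled to the mean library by TMM (trimmed mean of M values), and a gene is called where edgeR's quasi-likelihood test gave a Benjamini-Hochberg adjusted p under 0.05 over the 7338 genes whose mean count reached 40 in all 3 groups. Of the 8 genes, 7 met that minimum. Meis1 did not and is given from a fit without it. Marker genes set some libraries apart: the summed normalized count of 16 choroid plexus markers was 4100 to 11720 in 8 libraries and 31320 to 125600 in control replicate 4, IH replicates 1 and 4, and SH replicates 1, 2 and 5. The summed count of 10 dentate gyrus markers, the granule cells of the hippocampus being their main source, was 9121 to 11090 in control, 11910 to 17830 in IH and 11180 to 17930 in SH, so that it did not overlap between control and either hypoxia group. The 6 microglia markers summed to 4866 to 5404 in control, 4494 to 5609 in IH and 3672 to 4535 in SH, and the 11 markers of CA1 and CA3 pyramidal cells to 18950 to 20580, 15140 to 19700 and 15390 to 18490, so both were below control in every SH library. The summed levels of the other 6 marker lists overlapped between all groups, no marker was at 0 in all libraries, and the part of these marker levels in the SH values below was not tested. In bulk RNA, fewer cells of a type and less RNA per cell cannot be told apart.

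Pknox1, which encodes PREP1, was at about double its control level in the hypoxia libraries. Its normalized counts were 285.7, 180.6, 158.8 and 116.4 in the 4 control libraries. In IH they were 408.6, 455.9, 460.4, 390.5 and 428.3. In SH they were 358.2, 358.6, 376.7, 394.8 and 345.3. Every hypoxia library lay above every control library, and the highest control library stood nearer to the SH libraries than to the lowest control library.

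The control mean was 185 ± 72 (SD, n = 4). The IH mean was 429 ± 30.02 (SD, n = 5), and that of SH was 367 ± 19.3 (SD, n = 5). Control libraries were spread widely, with a coefficient of variation of 38.8%, against 7.00% in IH and 5.26% in SH. The log2 fold change was 1.21 (SE 0.18) for IH and 0.98 (SE 0.18) for SH against control, the 6th and the 12th highest of the 7338 genes. Both values lean on the control group: without control replicate 1, the highest, they were 1.49 and 1.27, and without control replicate 4, the lowest and the one rich in choroid plexus markers, they were 1.04 and 0.82. Without the 6 libraries rich in choroid plexus markers they were 1.11 and 0.89, and without the 3 libraries with the highest dentate gyrus markers (IH replicate 5 and SH replicates 4 and 5) 1.21 and 0.97. The hypoxia libraries left in that fit were still above every control library in summed dentate gyrus markers, and the part of these markers in the Pknox1 values was not tested.

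**Figure D1:**
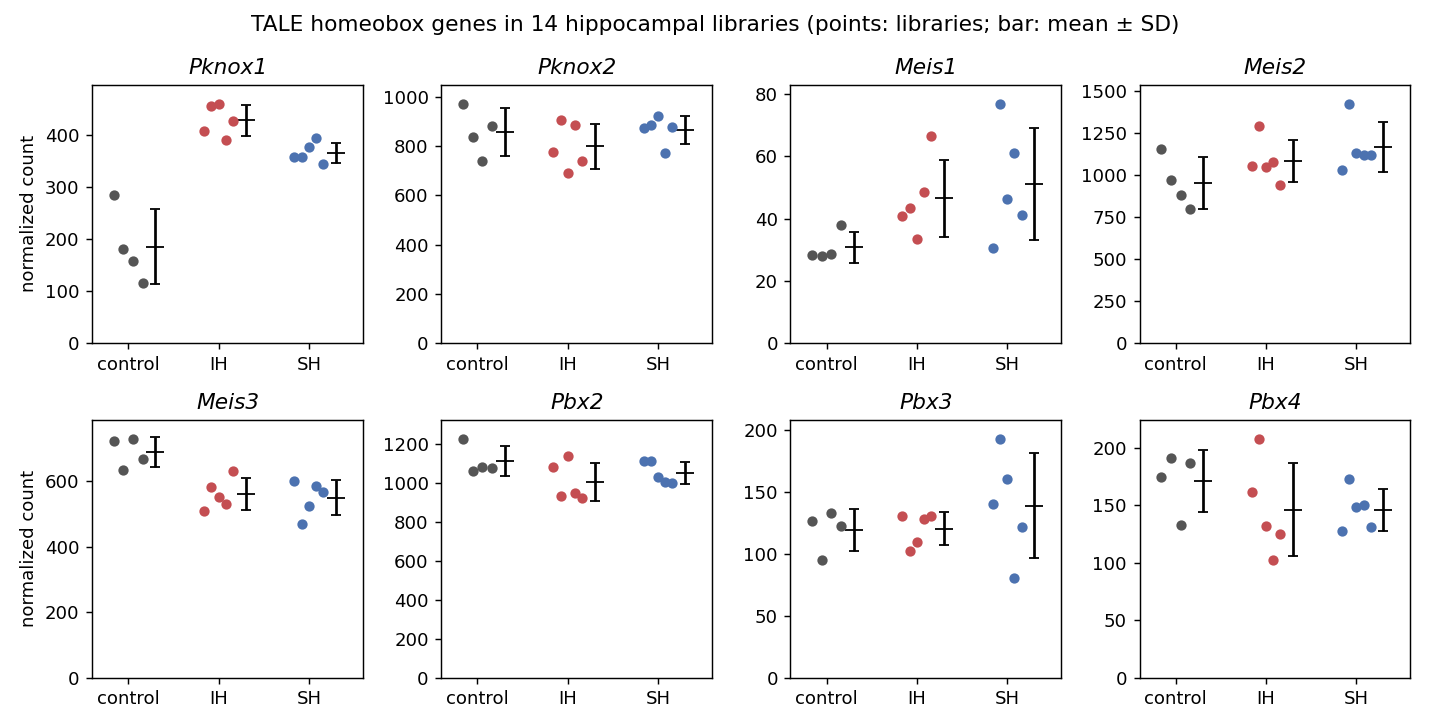
Normalized counts (vertical axes, from 0, a scale per gene) of the 8 TALE genes in each control, IH and SH library (points), with the mean ± SD of each group beside them (bar). For Pknox1 the 5 IH and 5 SH libraries all lie above the 4 control libraries, for Meis3 they all lie below them, and for the other 6 genes the groups overlap.

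IH and SH could be compared by test also for Pknox1, since that contrast had no part in its choice. Pknox1 was higher in IH than in SH by 0.23 on the log2 scale (SE 0.16, 95% confidence interval −0.12 to 0.57). The difference was not called (adjusted p = 0.57, edgeR quasi-likelihood test). The fit shares its estimate of spread over the 3 groups, so the control spread also enters this SE and interval. The coefficient of variation was 38.8% in control, against 7.00% in IH and 5.26% in SH. Over the 24 alternatives, by edgeR or DESeq2, the adjusted p ran from 0.215 to 0.82, with no call. The interval leaves room for a Pknox1 level in IH up to about 0.57 higher on the log2 scale, and all 5 IH libraries were above the SH mean, while the lowest IH library, 390.5, was below the highest SH library, 394.8.

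The closest relative of Pknox1, Pknox2, which encodes PREP2 and is expressed in brain, did not share its pattern. Pknox2 read 971.9, 836.4, 739.8 and 881.4 in control. It read 775.4, 905.1, 692.9, 886.9 and 739.9 in IH and 874.4, 885.1, 924.7, 773.4 and 879.2 in SH. The groups overlapped throughout, with means of 857 ± 96.5, 800 ± 92.6 and 867 ± 56.2. The log2 fold change was −0.10 (SE 0.095, adjusted p = 0.492, edgeR) in IH, 0.02 (SE 0.095, adjusted p = 0.916, edgeR) in SH and −0.12 between IH and SH (SE 0.090, adjusted p = 0.601, edgeR). The 95% confidence intervals against control ran from −0.30 to 0.10 in IH and from −0.18 to 0.22 in SH.

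The 3 MEIS genes encode the proteins that share the PBX-binding surface with PREP1. Meis3 was the only one of the genes tested against control that was called. Its normalized counts were 723.4, 636.5, 730.5 and 669.2 in control. They were 508.9, 582.7, 551, 530.2 and 632.6 in IH and 601.9, 469.2, 524.9, 584.7 and 567.6 in SH. Every hypoxia library was below every control library, although in IH the closest pair, 632.6 and 636.5, nearly met.

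Meis3 fell from 690 ± 44.9 in control to 561 ± 48.4 in IH and to 550 ± 53.3 in SH. Its difference on the log2 scale was −0.30 in IH (SE 0.088, adjusted p = 0.0420, edgeR) and −0.33 in SH (SE 0.088, adjusted p = 0.0180, edgeR), and 0.03 between IH and SH (SE 0.084, 95% confidence interval −0.15 to 0.21, adjusted p = 0.933, edgeR). Its direction against control held in all 24 alternative analyses, but the IH call was lost in 13 of them and the SH call in 3. With trends in GC content and transcript length removed from each library, Meis3 was −0.15 in IH (adjusted p = 0.299, edgeR) and −0.12 in SH (adjusted p = 0.417, edgeR). Meis3 has the highest GC content (59.1%) and the shortest transcript (1967 bases) of the 8 genes. Leaving out any of the 4 control libraries, IH replicates 1 to 4 or SH replicates 3 and 5 ended the IH call, and leaving out control replicate 1 ended the SH call (−0.30, adjusted p = 0.0546, edgeR). Without the 6 libraries rich in choroid plexus markers the values were −0.24 (adjusted p = 0.229, edgeR) and −0.32 (adjusted p = 0.154, edgeR), in a fit of 8 libraries in which 51 and 26 of all genes were called. Without the 3 libraries highest in dentate gyrus markers they were −0.35 (adjusted p = 0.0393, edgeR) and −0.37 (adjusted p = 0.0326, edgeR), both called.

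Meis2, a factor of forebrain development and of newborn olfactory neurons, was somewhat higher on average under hypoxia, with groups that overlapped. It read 1158, 970.7, 883.9 and 800.9 in control. It read 1057, 1294, 1052, 1080 and 943.4 in IH and 1033, 1425, 1132, 1123 and 1121 in SH. Control replicate 1, the library with the highest control value of Pknox1, also had the highest control value of Meis2, and control replicate 4 had the lowest value of both.

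The Meis2 means were 954 ± 153, 1085 ± 128 and 1167 ± 150. The log2 fold change was 0.19 in IH (SE 0.12, adjusted p = 0.292, edgeR) and 0.29 in SH (SE 0.12, adjusted p = 0.0887, edgeR), neither called, and IH differed from SH by −0.11 (SE 0.11, adjusted p = 0.739, edgeR). Over the 24 alternatives the Meis2 value in IH ran from 0.097 to 0.29 and was not called, with 0.29 without control replicate 1 and 0.11 without control replicate 4, and that in SH ran from 0.17 to 0.40. Without control replicate 1 the SH value was 0.40 and was called (adjusted p = 0.0373, edgeR). With the replicate number as a block it was 0.32 and was called (adjusted p = 0.0484, edgeR). The SH value was not called in the other alternatives. It was 0.17 both with GC content and length trends removed (adjusted p = 0.402, edgeR) and without the 6 libraries rich in choroid plexus markers (adjusted p = 0.530, edgeR).

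Meis1, known from haematopoietic stem cells and leukaemia, was the least abundant of the 8 genes, with raw counts of 28 to 78 per library. Its normalized counts were 28.21, 28.01, 28.66 and 38.08 in control. They were 40.75, 43.37, 33.4, 48.68 and 66.41 in IH and 30.57, 76.83, 46.17, 61.22 and 41 in SH. In the fit without a minimum count it gave a log2 fold change of 0.61 in IH (SE 0.28, adjusted p = 0.160, edgeR) and 0.74 in SH (SE 0.28, adjusted p = 0.0726, edgeR), and −0.13 between IH and SH (SE 0.26, adjusted p = 0.887, edgeR). None was called, the groups overlapped, and 5 of 5 IH and 4 of 5 SH libraries lay above the control mean of 30.7 ± 4.90.

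The 3 PBX genes measured, which encode the DNA-binding partners of PREP and MEIS proteins, showed no called difference. Pbx2, a widely expressed member, read 1228, 1060, 1083 and 1079 in control. It read 1085, 932.9, 1139, 949.3 and 922.1 in IH and 1114, 1116, 1033, 1005 and 1003 in SH. Its means of 1112 ± 77.5, 1006 ± 99.3 and 1054 ± 56.7 gave log2 fold changes of −0.15 in IH (95% confidence interval −0.31 to 0.02, adjusted p = 0.217, edgeR) and −0.08 in SH (−0.24 to 0.09, adjusted p = 0.504, edgeR). These intervals are the narrowest of the family, and the groups overlapped.

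Pbx3 ranged from 94.65 to 132.5 in control, 102.3 to 130.6 in IH and 79.96 to 192.6 in SH. Its log2 fold changes were 0.02 (SE 0.21, adjusted p = 0.965, edgeR) and 0.22 (SE 0.21, adjusted p = 0.461, edgeR), and the SH libraries spread over a wider range than those of the other groups. Its value in SH ran from 0.033 to 0.46 over the 24 alternatives, none of them called, and was 0.13 without control replicate 2, 0.077 without SH replicate 2 and 0.37 without SH replicate 4. Pbx4, best known from testis, ranged from 132.5 to 191.2 in control, 102.7 to 207.9 in IH and 127.5 to 173.1 in SH. It differed from control by a log2 fold change of −0.23 in both hypoxia groups (SE 0.19 each, adjusted p = 0.418 in IH and 0.402 in SH, edgeR), and ran from −0.39 to −0.094 in IH and from −0.34 to −0.14 in SH over the 24 alternatives, none of them called. Between IH and SH the PBX genes differed by −0.07 for Pbx2, −0.21 for Pbx3 and 0.00 for Pbx4, with adjusted p of 0.748, 0.692 and 1.00 (edgeR).

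**Figure D2:**
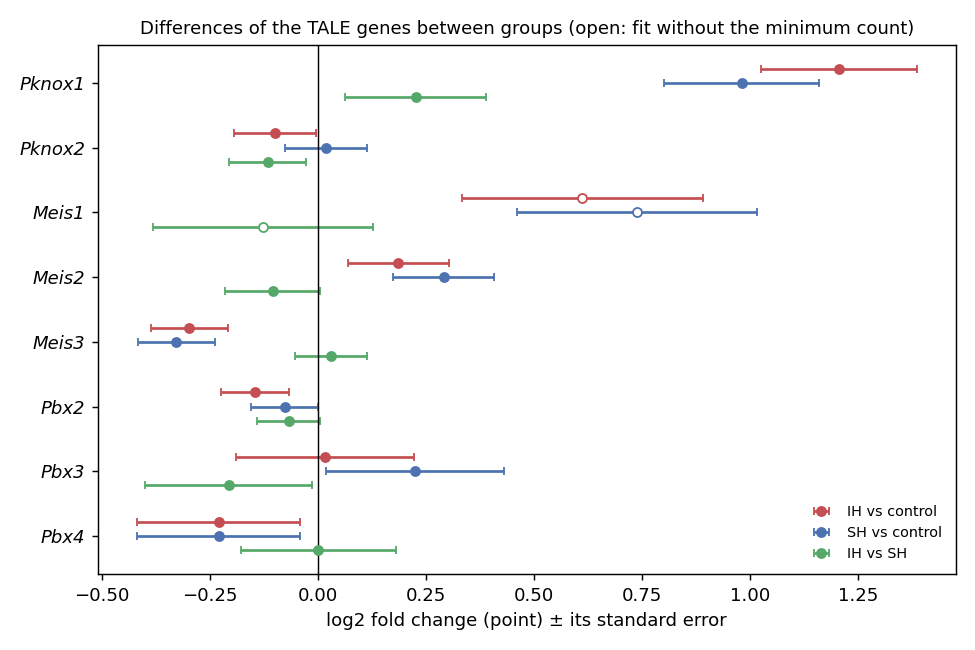
Log2 fold change (horizontal axis, point) with its standard error (bar) of each TALE gene for IH against control, SH against control and IH against SH. Open points mark Meis1, from the fit without a minimum count. The Pknox1 points against control, 1.21 and 0.98, lie apart from those of the other genes, which run from −0.33 to 0.74.

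Counted over the family, 1 of the 6 genes tested against control besides Pknox1 was called in IH and 1 of 6 in SH, in both cases Meis3 and in both cases lower. The background was 10.9% of all 7338 genes called in IH, of which the lower ones made up 4.85% of the genes tested, and 20.6% in SH, with 10.5% lower. Against such a background, 1 gene in 6 is near the share among all genes. The SH and the IH comparison use the same control libraries. Between IH and SH 0 of 7 genes were called by edgeR's quasi-likelihood test, 0 had an unadjusted p under 0.05, and 0 were called by DESeq2, beside 2.37% called among all genes. Besides Pknox1, which was chosen for its difference from control, 1 of 6 genes, Meis3, had groups without overlap in each comparison with control, where the share of all genes was 15.1% in IH and 19.4% in SH. Between IH and SH 0 of 7 genes had none, where the share was 4.46%. The median log2 fold change of all genes was −0.015, 0.0035 and −0.0039 in the 3 comparisons.

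Ratios within a library do not depend on how libraries are scaled against each other. Pknox1 counts per 100 counts of the other 7 TALE genes were 6.48, 4.73, 4.26 and 3.08 in control, between 10.5 and 12.4 in IH and between 8.27 and 10.5 in SH. The mean ratios were 4.64 ± 1.41, 11.4 ± 0.80 and 9.26 ± 0.80, and every hypoxia library was above every control library, by less in SH than in IH. Per 100 counts of Pknox2, its closest relative, Pknox1 had 21.4 ± 6.61 in control, 54.3 ± 8.42 in IH and 42.5 ± 4.82 in SH. Per 100 counts of the 3 PBX genes it had 13.1 ± 4.29, 33.8 ± 2.86 and 27.5 ± 2.91. These ratios hold Pknox1 and carry no test.

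**Figure D3:**
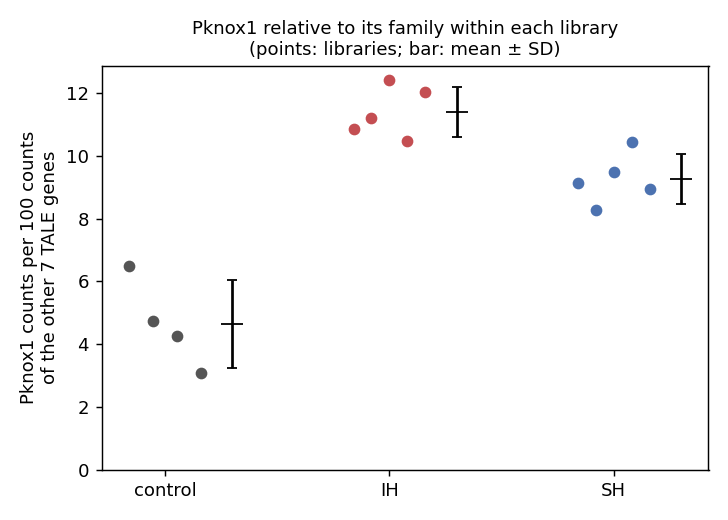
Pknox1 counts per 100 counts of the other 7 TALE genes (vertical axis, from 0) in each library (points), with the mean ± SD of each group (bar). Control libraries lie between 3.08 and 6.48 and all hypoxia libraries at 8.27 or above.

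Levels of different genes were compared per length, as normalized counts per kb of the canonical transcript. In control the order was Pbx2 (357), Meis3 (351), Meis2 (232), Pknox2 (197), Pbx4 (69.3), Pknox1 (43.0), Pbx3 (33.3) and Meis1 (9.11). In that order the ranges of Pbx2 and Meis3, of Meis2 and Pknox2, of Pbx4 and Pknox1, and of Pknox1 and Pbx3 overlapped, so that these neighbours did not differ beyond their spread. Pknox1 thus stood among the low members of the family in control, with a range of 27.0 to 66.2 per kb.

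In IH Pknox1 stood at 99.4 per kb, with a range of 90.5 to 107, above every IH value of Pbx4 (41.5 to 84.1) and below every value of Pknox2 (159 to 208). In SH it stood at 85.0 per kb (80.03 to 91.5), again between Pbx4 (51.6 to 70.0) and Pknox2 (177 to 212) with no overlap on either side. It thus took the fifth place in place of the sixth, the order of the other genes being the same in IH as in control, while in SH Meis2 (284) and Meis3 (279) stood in reverse order with ranges that overlapped. Pknox1 made up 3.27% ± 0.99 of the summed level per kb of the 8 genes in control, 7.87% ± 0.42 in IH and 6.55% ± 0.46 in SH. The summed level itself was 1291 ± 104, 1262 ± 52.2 and 1299 ± 46.1 per kb, overlapping between groups.

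**Figure D4:**
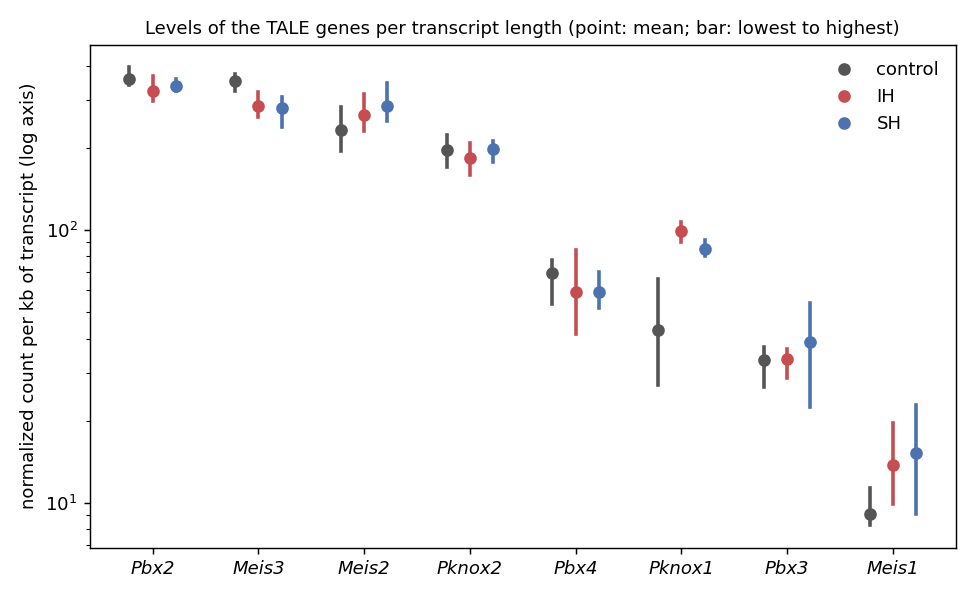
Normalized count per kb of transcript (vertical log axis) of the 8 TALE genes, ordered by their control level, as the group mean (point) with the lowest and highest library (bar). Pknox1 lies below Pbx4 in control and above it in IH and SH, and remains under Pknox2 in all 3 groups.

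The genes of the table nearest to Pknox1 on either side on chromosome 17 were not called higher under hypoxia. Ndufv3, a subunit of mitochondrial complex I, is the nearest gene of the table before Pknox1, with 31939 bases between them and the same strand. Its normalized count fell from 1136 ± 23.2 in control to 874 ± 48.9 in IH (log2 fold change −0.38, adjusted p = 0.00317, edgeR) and 891 ± 65.3 in SH (−0.35, adjusted p = 0.00310, edgeR). With GC content and length trends removed the Ndufv3 value in SH was −0.19 (adjusted p = 0.0793, edgeR), and without the 6 libraries rich in choroid plexus markers neither value was called (−0.41, adjusted p = 0.0716, and −0.42, adjusted p = 0.0867, edgeR). Cbs, which encodes cystathionine beta-synthase, ends 1172 bases after Pknox1 on the other strand. It read 861 ± 78.3, 773 ± 80.9 and 832 ± 64.6, with no called difference from control (adjusted p = 0.248 in IH and 0.721 in SH, edgeR).

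Genes whose levels followed those of Pknox1 most closely were listed by the Pearson correlation of log2 normalized counts over the 14 libraries, as a description. They were Sgsm1 (r = 0.947), Plekhm3 (0.902), Dlg1 (0.901), Zfp280d (0.895) and Osbpl6 (0.882), which differ between control and hypoxia as Pknox1 does. Dlg1 encodes the synaptic scaffold SAP97. With the group means taken out, the leading genes were others: Pusl1 (0.861), Scd3 (0.84), Vmac (0.822), Csf2ra (0.786) and Tle2 (0.784). Of the TALE genes, Meis2 followed Pknox1 in both measures (0.669, and 0.634 with the group means taken out), whereas the Meis3 value of −0.632 was 0.216 with the group means taken out. All these points share their libraries and scaling. Within groups Pknox1 varied mainly in control, from 116.4 to 285.7, against 390.5 to 460.4 in IH and 345.3 to 394.8 in SH. The correlations with the group means taken out therefore lean on the control libraries, above all on control replicates 1 and 4. Control replicate 4 is rich in choroid plexus markers.

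Other genes of the TALE system were taken from fixed lists. Of 7 further TALE genes only Mkx, a regulator of tendon, had a row, at 229 ± 36.5, 303 ± 69.3 and 307 ± 97.1, and it was not called (log2 fold change 0.41, adjusted p = 0.232 in IH, and 0.42, adjusted p = 0.191 in SH, edgeR). None of the 39 HOX genes listed had a row, and they were not analysed here.

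Of 27 binding partners and cofactors of TALE proteins, 7 were tested. In SH 2 were called higher and 2 lower, that is 4 of 7, where 20.6% of all genes were called. Skil, which encodes the SMAD repressor SnoN, rose from 1906 ± 244 to 2786 ± 323 (log2 fold change 0.55, adjusted p = 0.00394, edgeR), and Smad4, the common mediator of TGF-beta and BMP signals, rose from 926 ± 40.6 to 1177 ± 128 (0.35, adjusted p = 0.0127, edgeR). Klf4, a zinc finger factor that works with MEIS and PBX proteins, fell from 161 ± 42.2 to 93.0 ± 17.0 (−0.79, adjusted p = 0.0185, edgeR). Mn1, a co-regulator known from leukaemia with Meis1, fell from 673 ± 74.0 to 542 ± 33.4 (−0.31, adjusted p = 0.0298, edgeR). The median log2 fold change of the 7 was −0.074 in IH and 0.00041 in SH. In IH 0 of the 7 were called by edgeR, 4 had an unadjusted p under 0.05 (29.8% of all genes did), and DESeq2 called 1, Skil. Between IH and SH edgeR and DESeq2 called 0, and 2 had an unadjusted p under 0.05 (15.8% of all genes). The Klf4 and Mn1 calls were lost without control replicate 4, the library rich in choroid plexus markers (−0.60, adjusted p = 0.0701, and −0.23, adjusted p = 0.0990, edgeR), and the Mn1 call also without SH replicate 2 or SH replicate 3. With GC content and length trends removed only Skil was called. Smad4 was then 0.23, Klf4 −0.70 and Mn1 −0.11 (adjusted p = 0.0984, 0.0585 and 0.577, edgeR). Without the 6 libraries rich in choroid plexus markers none of the 4 was called (adjusted p from 0.0999 to 0.316, edgeR). Their values were then 0.59 for Skil, 0.46 for Smad4, −0.55 for Klf4 and −0.20 for Mn1. That smaller fit called 26 genes in all in SH.

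Of 14 genes that other work has placed under MEIS or PREP1 proteins, 7 were tested: Hif1a, Bcl2l1, Bcl2, Pax6, Dcx, Ccnd1 and Epha8. Neither edgeR nor DESeq2 called any in the 3 comparisons, and 1 in IH, 2 in SH and 3 between IH and SH had an unadjusted p under 0.05, as did 29.8%, 35.96% and 15.8% of all genes. Hif1a, whose product is the oxygen-regulated subunit of HIF-1, had a log2 fold change of 0.09 in each hypoxia group (SE 0.062 each, adjusted p = 0.337 in IH and 0.314 in SH, edgeR). Pax6, an eye and forebrain homeobox gene with MEIS-bound enhancers, had −0.26 in IH (adjusted p = 0.329, edgeR) and 0.16 in SH (adjusted p = 0.554, edgeR). The medians of the 7 were 0.03 in IH and −0.013 in SH.

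Of 54 other homeobox genes of the forebrain, 33 were tested, with medians of −0.0061 in IH and −0.00016 in SH. Only Prox1 was called in IH, 1 of 33 where 10.9% of all genes were called, and only Prox1 and Hopx in SH, 2 of 33 where 20.6% were. Prox1, which sets the identity of dentate granule cells and is itself one of the dentate gyrus markers, rose from 1954 ± 137 to 3081 ± 500 in IH (log2 fold change 0.66, adjusted p = 0.0169, edgeR) and to 3419 ± 892 in SH (0.81, adjusted p = 0.00387, edgeR). Leaving out control replicate 1 or control replicate 2 ended its IH call (0.63 each, adjusted p = 0.0537 and 0.0572, edgeR). Of the other dentate gyrus markers, the calcium channel gene Trpc6 was called in IH (0.71, adjusted p = 0.0122, edgeR) and Pdzd2 in SH (0.53, adjusted p = 0.0461, edgeR), and the median over the 10 markers was 0.41 in IH and 0.36 in SH. The Pdzd2 call was lost in 11 of the 24 alternatives, among them the fits without control replicate 1, 2 or 3, IH replicate 1, 2 or 4, or SH replicate 4 or 5, and without the 3 libraries highest in dentate gyrus markers its value was 0.26 (adjusted p = 0.226, edgeR).

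Hopx, a homeodomain protein that does not bind DNA and is made by neural stem cells and astrocytes, fell from 1237 ± 54.7 in control to 856 ± 86.4 in SH (−0.53, adjusted p = 0.00119, edgeR). It was the only homeobox gene of these lists called between IH and SH, higher in IH at 1084 ± 110 (0.34, adjusted p = 0.0387, edgeR). That call was lost in 14 of the 24 alternatives, with values from 0.29 to 0.42 throughout.

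**Figure D5:**
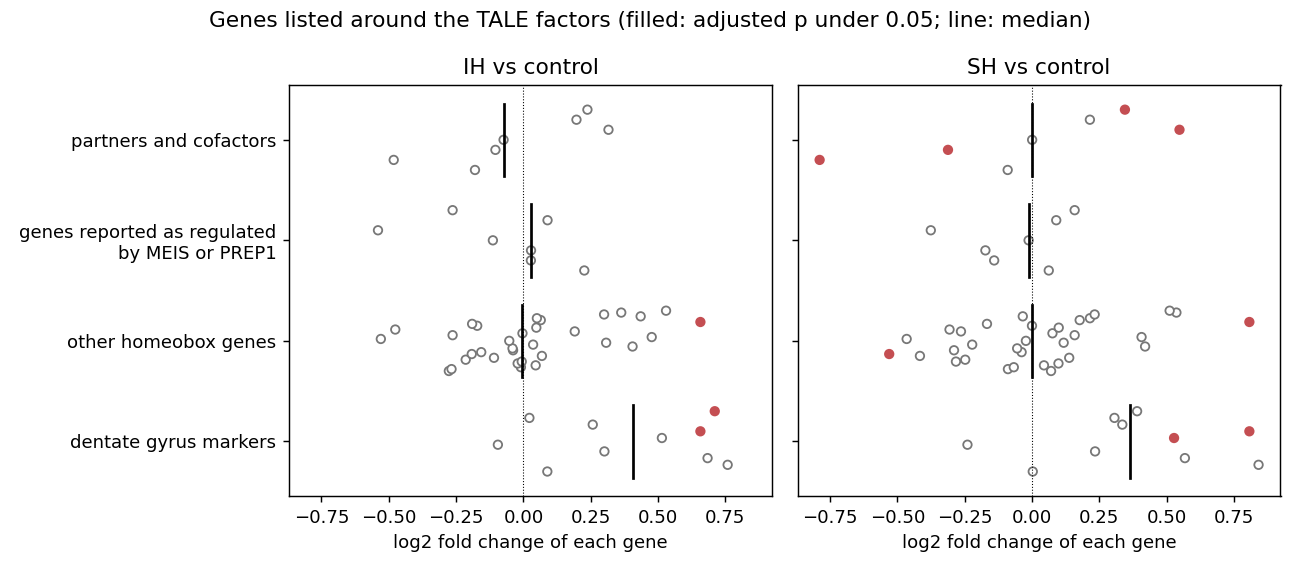
Log2 fold change of each tested gene (points, horizontal axis) in 4 gene lists, for IH against control (left) and SH against control (right), with called genes filled and the list median as a line. The 3 lists around the TALE factors have medians between −0.074 and 0.03, and the dentate gyrus markers have medians of 0.41 and 0.36.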

How the data were processed

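Hippocampal poly(A) RNA of 14 libraries (4 of control, 5 of IH and 5 of SH) was sequenced as paired-end 150-base reads from a strand-specific kit. The authors trimmed reads with fastp 0.23.4, aligned them to GRCm39 with HISAT2 2.2.1 and quantified genes with StringTie 2.2.1; the annotation is not given in the sources used here, nor whether counting used strand. The deposited values are each an estimated count per gene and library, which the authors did not normalize; they were whole numbers but for 10 genes and were rounded here. The authors describe keeping protein-coding genes whose count exceeded 40 in every group, and then only genes whose processed signal, taken relative to control, passed a minimum in size; in the deposited counts, 7338 of the 7756 genes reach a mean of 40 in all 3 groups. Genes with little difference from control were thus removed before deposit, so shares of called genes are not shares of the transcriptome.

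Members were found by symbol. The members and lists were chosen with earlier results of these data known. These 7338 genes were fitted in 1 model of the 3 groups with edgeR 4.0.16 (R 4.3.3; TMM scaling, glmQLFit, glmQLFTest), with Benjamini-Hochberg adjustment over all of them. The steps were tested on simulated data. SE was taken as the log2 fold change divided by the root of F. Named genes were every member, the called members of each list (at most the 6 with the smallest p), the 5 genes most correlated with Pknox1 in each of the 2 ways, and the nearest gene of the table on each side of it; Mkx and the 7 tested genes of the MEIS and PREP1 list were named outside this rule, after their values were seen.

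Of the gene symbols, 7707 matched GENCODE vM39 directly and 13 through a RefSeq synonym, and 36 did not match. Copies were searched with blastn 2.17.0. Alternatives were DESeq2 1.42.0, other scalings and filters, fits of 2 groups alone, a block for the replicate number, a correction for GC content and length, leaving out each library, and leaving out the libraries rich in choroid plexus markers or richest in dentate gyrus markers, the last 2 chosen after seeing the data. Correlations between the deviations of same-numbered libraries ran from −0.304 to 0.457 over 13 pairs, above 0.1 in 6. Pairs with different numbers were not computed for reference, so these values cannot decide whether the numbers pair libraries. The main fit did not take the numbers to pair them. No 2 libraries of a group were alike within counting noise (chi-square per degree of freedom of at least 8.96 over 26 pairs). Counting precision is limited most for Meis1.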

Additional observations from a re-analysis of the deposited data

Results flagged for a closer look

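In 24 checks, 8 genes in each of 3 groups, a library lay farther from the rest of its group than Dixon's test allows at the 95% level in 3, where chance alone flags about 1 group in 20. Meis1 read 38.08 normalized counts in control replicate 4, against 28.66 in the next highest control library. Meis2 read 1425 in SH replicate 2, with the next highest SH library at 1132. Pbx2 read 1228 in control replicate 1, with the next highest control library at 1083, and without control replicate 1 its log2 fold change was −0.095 in place of −0.15 in IH and −0.027 in place of −0.08 in SH, none of them called by edgeR. Control replicate 4 and SH replicate 2 are among the 6 libraries rich in choroid plexus markers, and control replicate 1 is not. Without these 6 libraries the Meis2 log2 fold change in SH against control was 0.17 in place of 0.29, not called in either case (adjusted p = 0.530 and 0.0887, edgeR). For Meis1 the part of those markers was not tested. Pknox1 was not among the genes with such a library in any group.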

How the results depend on the processing

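Pknox1 against control was positive in all 24 alternatives, from 1.04 to 1.49 on the log2 scale in IH and from 0.82 to 1.27 in SH, and IH against SH ran from 0.20 to 0.25 without a call. Over the 8 genes, leaving out Pknox1 against control, which carries no test, 419 of 459 alternative values kept their direction and call. Meis1 was recomputed only with edgeR's own filter (filterByExpr), since it is under the minimum count.

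Called TALE genes in IH against control numbered 1, and 0 with only the groups compared, with GC content and length trends removed and without the 6 libraries rich in choroid plexus markers, and 0 to 1 with single libraries left out. In SH against control they numbered 1, and 0 with GC content and length trends removed and without the 6 libraries. With the replicate number as a block, they numbered 2 in SH, Meis2 joining Meis3 (0.32, adjusted p = 0.0484, edgeR), and the block also took the Hopx call between IH and SH (0 called of the other homeobox genes) and changed none of the other counts for the TALE genes and the 3 lists around them. Among the markers it ended the Ermn call in IH (0.53, adjusted p = 0.0734, edgeR) and the Csf1r call in SH (−0.23, adjusted p = 0.0645, edgeR). It moved Pbx4 in IH against SH to −0.020. The cause of these changes was not tested, but a fit without 6 libraries has fewer samples, and it called 51 genes in all in IH in place of 802 and 26 in SH in place of 1514. GC content and length removal left 444 and 506.

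Partners and cofactors called in SH (4) numbered 1 after GC content and length removal, 0 without the 6 libraries, 2 without the 3 libraries richest in dentate gyrus markers, and 2 to 4 with single libraries left out. In IH DESeq2 called 1. Of the genes reported under MEIS or PREP1, 1 (Ccnd1) was called in SH with scaling by the 80th percentile, and 0 to 1 with single libraries left out. Of the other homeobox genes, DESeq2 called 2 in IH. Without the 6 libraries 0 were called in all 3 comparisons, and with single libraries left out 0 to 1 in IH. Between IH and SH 0 were called with only the groups compared and without the 3 libraries richest in dentate gyrus markers, and 0 to 1 with single libraries left out.

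Sign changes came only in values that were not called. Pknox2 in SH was −1.913e-05 with scaling by the 80th percentile, and −0.048 to 0.083 with single libraries left out. Pbx2 in SH was 0.038 after GC content and length removal. Pbx3 in IH was −0.042 without the 6 and −0.015 without the 3 libraries, and −0.078 to 0.073 with single libraries left out. Meis3 between IH and SH was −0.035 after GC content and length removal and −0.0221 to 0.065 with single libraries left out. Pbx4 between IH and SH was −0.001142 with library totals, −0.003016 with no filter, −0.001842 with filterByExpr, −0.021 after GC content and length removal and −0.16 to 0.10 with single libraries left out. Cbs was 0.0050 in IH and 0.083 in SH without the 6 libraries, and −0.082 to 0.013 in SH with single libraries left out. Depth limits Meis1 most, at 28 to 78 reads per library.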

Other observations

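Beside the TALE genes, markers of several cell types differed between groups. In SH against control the microglial genes C1qc (log2 fold change −0.63, adjusted p = 0.00288, edgeR), C1qa (−0.44, adjusted p = 0.0290, edgeR) and Csf1r (−0.22, adjusted p = 0.0467, edgeR) fell, which makes 3 of the 6 microglia markers tested, where 10.5% of all genes were called lower. With GC content and length trends removed only C1qc of these 3 was called. C1qa was then −0.18 (adjusted p = 0.410, edgeR) and Csf1r −0.20 (adjusted p = 0.140, edgeR). Without the 6 libraries rich in choroid plexus markers none of the 3 was called (adjusted p from 0.0785 to 0.319, edgeR). Their values were then −0.72 for C1qc, −0.42 for C1qa and −0.19 for Csf1r. That smaller fit called 26 genes in all in SH. C1q is the first component of complement, and Csf1r encodes the receptor that microglia need to survive. C1qc was also higher in IH than in SH (0.50, adjusted p = 0.0323, edgeR), the only microglia marker called between the hypoxia groups.

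Single markers rose in other lists, where 10.9% of all genes were called in IH and 20.6% in SH. Gjb6, which encodes the astrocytic connexin 30, rose in IH (0.47, adjusted p = 0.00203, edgeR) and SH (0.30, adjusted p = 0.0134, edgeR), as 1 of 3 astrocyte markers, of which 2 had a positive value in IH and 1 in SH (medians 0.05 and −0.12), and Ermn of myelinating oligodendrocytes rose in IH (0.73, adjusted p = 0.0495, edgeR) and SH (0.77, adjusted p = 0.0255, edgeR), as 1 of 9. Gad1, which makes the enzyme of GABA synthesis, rose in SH (0.30, adjusted p = 0.00728, edgeR), as 1 of 12 interneuron markers, of which 7 had a positive value, with a median of 0.03. Of 12 endothelial and mural markers, Ly6c1 rose in IH (0.46, adjusted p = 0.0270, edgeR), and the VEGF receptor gene Flt1 (0.22, adjusted p = 0.0245, edgeR) and the transporter gene Slco1a4 (0.40, adjusted p = 0.00119, edgeR) rose in SH. Of these 12, 6 had a positive value in IH and 7 in SH, with medians of −0.0061 and 0.026. Slco1a4 was lower in IH than in SH (−0.40, adjusted p = 0.00444, edgeR). Over the 24 alternatives, all of these values kept their direction, but the call was lost in 17 for Csf1r, in 15 for Ermn in IH and in 11 for C1qc between IH and SH, and in 1 to 7 for the others.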
